A study of Mus musculus with 6 samples.

Results

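The Hsp70 chaperone family was followed in mouse erythroblasts with and without a transgene for mutant RPS19. The family was taken as 10 named genes, and every probe set annotated to exactly 1 of their symbols was used. This gave 24 of the 22626 probe sets tested, for 10 of the 12393 genes with a probe set of their own. The members are the stress-inducible pair Hspa1a and Hspa1b, the constitutive cytosolic gene Hspa8, the testis-enriched gene Hspa2, the Hsp110 genes Hspa4, Hspa4l and Hsph1, the ribosome-linked gene Hspa14, the mitochondrial gene Hspa9 and the endoplasmic reticulum (ER) gene Hspa5.

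The 3 mutant samples came from FVB/N mice that express an RPS19 transgene with the change R62W, and the 3 wild type samples came from wild type FVB/N mice. All 6 were erythroblasts, the nucleated precursors of red cells, taken from bone marrow by sorting for CD71 (the transferrin receptor), and each was read on 1 Affymetrix array. RPS19 is a protein of the small ribosomal subunit that is often mutated in Diamond-Blackfan anaemia, a failure of red cell production. The labels do not state the promoter that drives the transgene, the age of the mice or whether each sample is a separate animal. P-values therefore measure the spread between these samples alone, and that spread may be technical. Only mutant replicate 3 is set apart from the others by genes of the X and Y chromosomes, as given below. Values are RMA values on the log2 scale, where a step of 1 is a doubling of signal.

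Hsp70 proteins bind exposed stretches of unfolded proteins and let them go in a cycle driven by ATP. J-domain proteins bring the clients and start ATP hydrolysis, and exchange factors such as the Hsp110 proteins release the ADP. Heat shock factor 1 switches on the inducible members when unfolded proteins build up in the cytosol. In human erythroblasts, inducible Hsp70 is known to protect the transcription factor GATA1 from cleavage by caspases during maturation.

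The stretches before the start sites of 4 members are shown, chosen with the values known: the inducible pair, the Hsp110 gene Hsph1 and the ER gene Hspa5. The part of these stretches in the differences was not tested. RefSeq promoters (GRCm38.p6) were matched by symbol for 8 of the 10 genes, with 9 windows. Hspa8 and Hspa9 had no match and were not searched. Each line holds the 250 bases before the annotated start, 5′ to 3′ on the strand of the gene. Capitals mark a pair of heat shock units (GAANNTTC or TTCNNGAA, each its own reverse complement) or, in Hspa5, an ER stress response element (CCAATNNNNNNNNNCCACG, searched on both strands, which contains a CCAAT box).
Hspa1a, chr17:34972157-34972406, minus strand: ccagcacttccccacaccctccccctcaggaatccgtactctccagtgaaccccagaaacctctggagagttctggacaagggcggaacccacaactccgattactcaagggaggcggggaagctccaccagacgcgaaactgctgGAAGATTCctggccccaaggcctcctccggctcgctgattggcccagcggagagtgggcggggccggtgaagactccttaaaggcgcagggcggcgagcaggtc
Hspa1b, chr17:34959239-34959488, minus strand: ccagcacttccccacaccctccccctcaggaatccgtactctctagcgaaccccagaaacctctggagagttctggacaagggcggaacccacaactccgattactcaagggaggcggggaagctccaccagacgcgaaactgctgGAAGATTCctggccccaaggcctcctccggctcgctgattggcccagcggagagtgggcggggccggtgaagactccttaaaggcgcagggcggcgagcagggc
Hsph1, chr5:149636337-149636586, minus strand, the outer of its annotated starts: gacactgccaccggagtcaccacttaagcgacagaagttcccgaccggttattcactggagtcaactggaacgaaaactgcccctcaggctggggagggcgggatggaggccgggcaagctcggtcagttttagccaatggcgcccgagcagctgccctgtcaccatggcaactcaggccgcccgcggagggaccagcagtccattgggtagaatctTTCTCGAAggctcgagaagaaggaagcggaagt
Hspa5, chr2:34771840-34772089, plus strand: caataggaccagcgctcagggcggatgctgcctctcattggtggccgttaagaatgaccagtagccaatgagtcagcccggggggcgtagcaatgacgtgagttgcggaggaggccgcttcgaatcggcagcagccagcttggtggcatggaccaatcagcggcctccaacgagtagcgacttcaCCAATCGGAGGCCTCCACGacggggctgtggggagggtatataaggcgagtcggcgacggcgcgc
The Hspa1a and Hspa1b stretches were identical at 247 of 250 bases (98.8%), and both held GAANNTTC from 104 to 97 bases before the start. Hsph1 held TTCNNGAA from 33 to 26 bases before the start shown. These were the 3 genes of the 8 searched with a pair of heat shock units, which 12.8% of all 32851 promoter windows of this length held. The near-identical stretches of Hspa1a and Hspa1b are not independent matches, and whether Hspa8 or Hspa9 holds such a pair is not known here. The ER stress response element was found in Hspa5 alone of the 8, from 65 to 47 bases before the start, and in 0.113% of all windows. A match of letters is a description and shows no binding.

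The arrays did not spread alike. Over all probe sets, differences between 2 arrays had an SD (log2) of 0.345 to 0.503 within the mutant group and 0.143 to 0.186 within the wild type group. Mutant replicate 3 read 5.78 for Xist and 8.34 for the Y-linked gene Eif2s3y, whereas the other 5 arrays read 11.38 to 12.07 and 2.23 to 2.45. That is a male pattern on mutant replicate 3 and a female pattern on the other 5, so sex was not balanced between the groups. The 3′ probe sets of the actin control exceeded the 5′ ones by 1.58 to 1.88 on mutant arrays and by 1.26 to 1.37 on wild type arrays (log2, exact permutation p = 0.1, the smallest that 3 arrays against 3 can give). The same measure was 0.25 to 0.31 on mutant and -0.09 to -0.05 on wild type arrays for the Gapdh control (exact permutation p = 0.1), and 1.63 to 1.88 and 1.67 to 1.78 for the transferrin receptor control (exact permutation p = 0.8). Tfrc, which encodes the sort marker, read 11.45 to 11.99 on mutant arrays and 12.13 to 12.15 on wild type arrays on its brightest probe set, and was not called in the gene fit (-0.34 ± 0.15, adjusted p = 0.313, limma). Its dimmer probe set 1422966_a_at read 7.73 to 7.94 against 8.90 to 8.97 and fell by 1.10 ± 0.10 (adjusted p = 0.00388, limma over all probe sets). Gata1, the erythroid transcription factor, read 9.07 to 9.79 on mutant and 9.28 to 9.36 on wild type arrays. Rps19 read 12.06 to 12.10 on mutant arrays and 12.06 to 12.13 on wild type arrays, and the labels do not say whether its probe set also reads the transgene.

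Across the family, transcripts were lower in mutant erythroblasts or did not pass the test. Of the 24 probe sets, 6 fell and 0 rose at an adjusted p under 0.05 (limma over all 22626 probe sets), and at an unadjusted p under 0.05 the counts were 11 lower and 0 higher. Of all probe sets tested, 1.39% were called lower and 0.941% were called higher, and at an unadjusted p under 0.05, 10.5% were lower and 8.64% were higher. The 6 calls belong to 4 genes, Hspa1a, Hspa1b, Hspa8 and Hspa4. Probe sets of 1 gene share a transcript and are not independent of each other. The median difference was -0.25 over the 24 probe sets and -0.01 over all probe sets, and the mutant mean was the lower one for 21 of 24 probe sets and for 52.5% of all. On 12 of the 24, every mutant array read below every wild type array, which held for 14.7% of all probe sets, and on 0 of the 24 did every mutant array read above, which held for 11.4% of all. These calls needed all 3 wild type arrays: leaving out any 1 of them left 0 of 24 called by limma (8 or 9 at an unadjusted p under 0.05, all lower). Calls over all probe sets fell too, with 0.106% to 0.146% called lower in those fits. Leaving out mutant replicate 1 gave 8 calls, mutant replicate 2 gave 1 and mutant replicate 3 gave 5. In the same order, 5.27%, 0.548% and 1.95% of all probe sets were called lower.

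**Figure D1:**
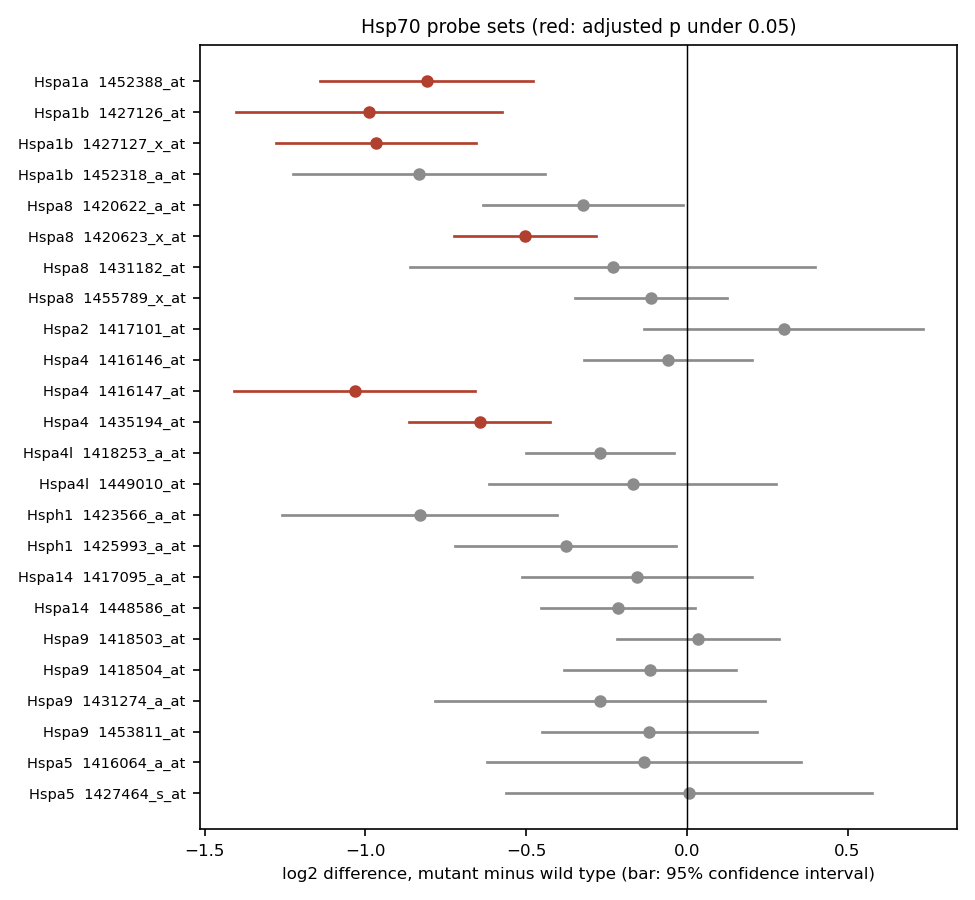
Log2 difference (mutant minus wild type, 3 arrays each) of each of the 24 Hsp70 probe sets, with its 95% confidence interval from limma as a bar. The 6 called probe sets, in red, lie between -1.03 and -0.50, and those of Hspa9 and Hspa5 have intervals that include 0.

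The inducible cytosolic pair was lower in mutant samples on each of its 4 probe sets, 3 of which were called. Hspa1a, which encodes an inducible Hsp70, read 9.17, 9.39 and 8.90 on mutant replicates 1, 2 and 3, against 9.88, 9.91 and 10.09 on the wild type arrays. All mutant values lay below all wild type values, and the gap between the groups (9.39 to 9.88) was wider than the range within wild type. The means were 9.15 ± 0.25 in mutant and 9.96 ± 0.12 in wild type samples (SD, n = 3 each), a fall of 0.81 ± 0.14 (log2, SE), to 0.570 times the wild type level (adjusted p = 0.0374, limma).

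Hspa1b, which encodes the other inducible Hsp70 of almost the same sequence, was read by 3 probe sets. Probe set 1427127_x_at read 9.16, 9.41 and 9.46 on mutant replicates 1, 2 and 3, against 10.20, 10.22 and 10.52 on the wild type arrays. It fell by 0.967 ± 0.133 (log2, SE), to 0.512 times the wild type level (adjusted p = 0.0200, limma). The groups did not overlap, and mutant replicate 1 was the lowest array on all 3 Hspa1b probe sets, whereas mutant replicate 3 was the lowest on Hspa1a.

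Probe set 1427126_at of Hspa1b read 8.62, 9.03 and 9.10 in mutant samples, against 9.77, 9.74 and 10.21 in wild type samples, and fell by 0.99 ± 0.18 (log2, SE, adjusted p = 0.0388, limma). The brightest Hspa1b probe set, 1452318_a_at, read 10.87, 11.27 and 11.15 in mutant samples, against 11.67, 11.91 and 12.22 in wild type samples. Its difference of -0.83 ± 0.17 (log2, SE) missed the threshold (adjusted p = 0.0528, limma) although its groups did not overlap either. Wild type replicate 3 was the highest array on all 4 probe sets of the pair, and the wild type SD of 0.12 to 0.27 on them was above the median over all probe sets of 0.09. Since Hspa1a and Hspa1b are near-identical copies, it is uncertain how far these probe sets tell the 2 genes apart. On leaving out single arrays, the differences of the 4 probe sets ran from -1.08 to -0.68.

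**Figure D2:**
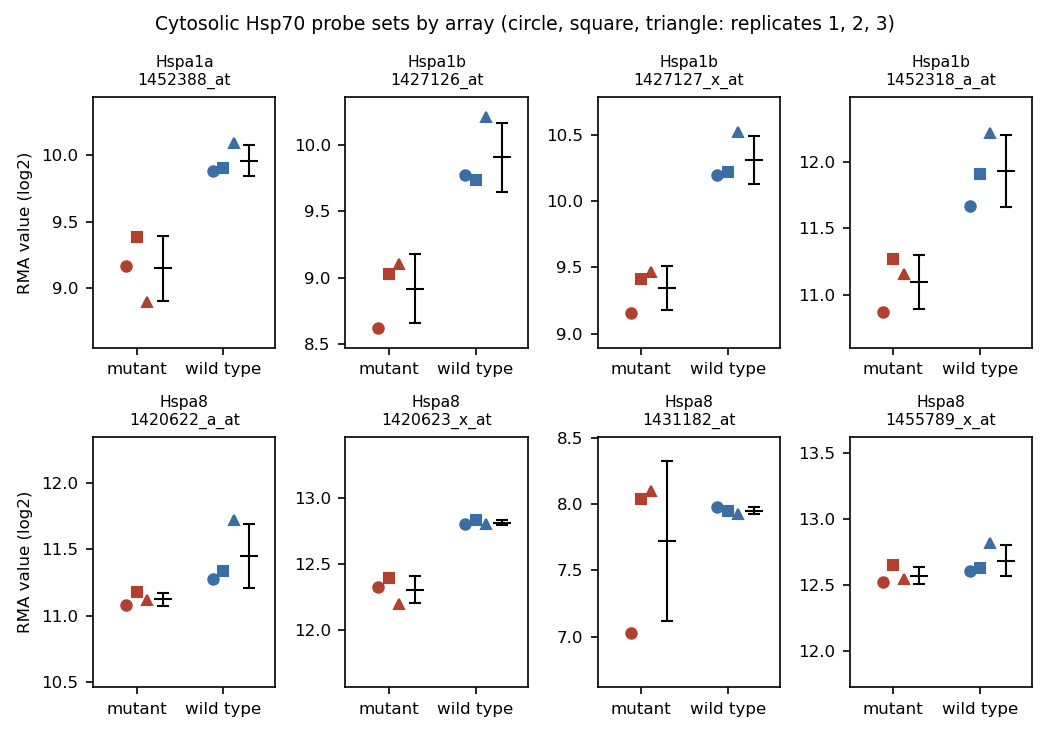
RMA values (log2) of the probe sets of Hspa1a, Hspa1b and Hspa8 on the 3 mutant and 3 wild type arrays, with mean and SD in black, and each panel spanning the same log2 range at its own height. Mutant arrays lie below wild type arrays in all 4 panels of the inducible pair, while the 4 Hspa8 panels differ from each other.

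Hspa8 encodes the constitutive cytosolic Hsp70, which also strips clathrin coats from vesicles. Its 4 probe sets did not give 1 answer. Probe set 1420623_x_at read 12.33, 12.40 and 12.20 on mutant arrays, against 12.80, 12.83 and 12.80 on wild type arrays, and fell by 0.504 ± 0.094 (log2, SE, adjusted p = 0.0438, limma). It was no longer called when quantile normalization was repeated without control probe sets (-0.40, adjusted p = 0.0855). Probe set 1420622_a_at read 11.08 to 11.17 in mutant and 11.28 to 11.72 in wild type samples, without overlap, and its difference of -0.32 ± 0.13 was not called (adjusted p = 0.246, limma).

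The brightest Hspa8 probe set, 1455789_x_at, read 12.52, 12.65 and 12.54 in mutant samples, against 12.61, 12.63 and 12.82 in wild type samples. Here the groups overlapped and the difference was -0.11 (95% confidence interval -0.35 to 0.12). It took the sign of 0.02 when quantile normalization was repeated without control probe sets. On 1431182_at the mutant arrays split, with 7.02 on replicate 1 against 8.04 and 8.10 on replicates 2 and 3, beside 7.93 to 7.98 in wild type. Its difference of -0.23 turned to 0.12 without mutant replicate 1 (adjusted p = 0.443, limma). How the 4 probe sets are placed on the transcript was not analysed here, and of the 3 controls read at both ends, the 3′ minus 5′ value was higher on the mutant arrays for actin and Gapdh and overlapped for the transferrin receptor. Its part in these differences was not tested.

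Hspa2, a chaperone of male germ cells, was read by 1 probe set at 5.32, 5.51 and 4.76 on mutant arrays, against 4.87, 4.90 and 4.92 on wild type arrays. The groups overlapped, and its difference of 0.30 (95% confidence interval -0.13 to 0.73) was not called. Its mean over the 6 arrays exceeded that of 46.1% of all probe sets.

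The Hsp110 genes encode large relatives of Hsp70 that act as its exchange factors, and their probe sets ranged from no clear difference to the lowest difference in the family. For Hspa4, probe set 1416147_at read 4.06, 4.01 and 4.58 in mutant samples, against 5.26, 5.18 and 5.32 in wild type samples. It fell by 1.03 ± 0.16 (log2, SE), to 0.489 times the wild type level (adjusted p = 0.0275, limma), but it is dim: 42.4% of all probe sets had a lower mean. Probe set 1435194_at of Hspa4 read 7.57, 7.47 and 7.58 in mutant samples, against 8.12, 8.28 and 8.15 in wild type samples, and fell by 0.645 ± 0.094 (adjusted p = 0.0246, limma).

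The brightest Hspa4 probe set, 1416146_at, did not follow the other pair. It read 9.81, 9.50 and 9.76 in mutant samples, against 9.79, 9.69 and 9.76 in wild type samples, a difference of -0.06 (95% confidence interval -0.32 to 0.20). The differences of the 3 Hspa4 probe sets thus spanned 0.97 on the log2 scale, the widest span among the members with several probe sets. The span of Hspa1b was 0.156 over 3 probe sets.

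Hsph1, the heat-inducible Hsp110, was lower without overlap on both probe sets but was not called. Probe set 1423566_a_at read 7.15, 7.85 and 7.74 in mutant samples, against 8.40, 8.35 and 8.48 in wild type samples, a difference of -0.83 ± 0.18 (adjusted p = 0.0662, limma). Without mutant replicate 1, the lowest array, the difference was -0.62 and was called (adjusted p = 0.0112). Probe set 1425993_a_at read 9.20, 9.73 and 9.64 in mutant samples, against 9.95, 9.88 and 9.87 in wild type samples (-0.38 ± 0.15, adjusted p = 0.224, limma). For Hspa4l, an Hsp110 abundant in testis, 1418253_a_at read 6.99 to 7.17 in mutant and 7.24 to 7.41 in wild type samples (-0.27 ± 0.10, adjusted p = 0.20, limma). Its other probe set, 1449010_at, overlapped (6.17 to 6.92 against 6.74 to 6.85), with mutant replicate 1 the lowest array.

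**Figure D3:**
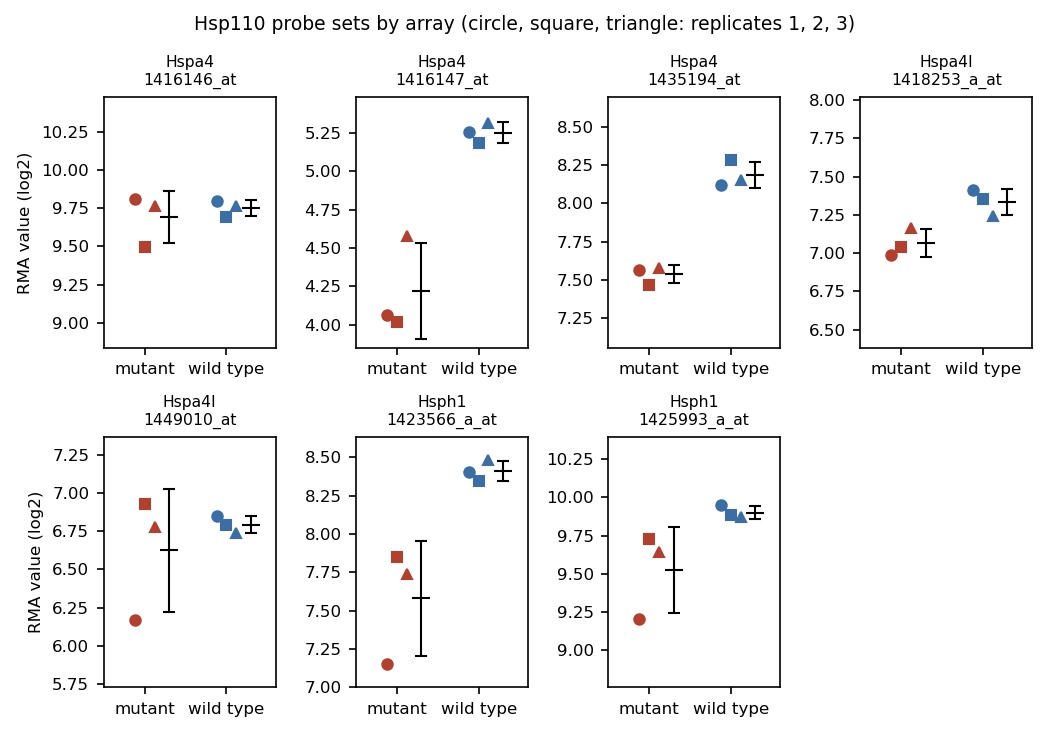
RMA values (log2) of the 7 probe sets of Hspa4, Hspa4l and Hsph1 on the 3 mutant and 3 wild type arrays, with mean and SD in black, and each panel spanning the same log2 range at its own height. Of the 3 Hspa4 panels, 1416146_at overlaps between the groups and the other pair does not.

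Hspa14 encodes an Hsp70 that sits at the ribosome with the J-domain protein Dnajc2 in mammalian cells. Its brighter probe set, 1448586_at, read 8.84, 9.03 and 9.11 on mutant arrays, against 9.22, 9.19 and 9.21 on wild type arrays. The mutant arrays lay below the wild type arrays, and the difference of -0.21 ± 0.10 was not called (adjusted p = 0.314, limma). The other probe set, 1417095_a_at, read 6.97 to 7.26 in mutant and 7.14 to 7.61 in wild type samples, with overlap.

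The mitochondrial and ER members showed no called difference. Hspa9 encodes mortalin, which pulls proteins into mitochondria and helps to hand on iron-sulfur clusters. On 1418504_at, its brightest probe set, it read 9.67, 9.32 and 9.59 in mutant samples, against 9.63, 9.69 and 9.62 in wild type samples (-0.12, 95% confidence interval -0.38 to 0.15). On 1418503_at the difference was 0.04 (-0.22 to 0.29), which took the sign of -0.02 under array weights and likewise without mutant replicate 1. The dimmer probe sets 1431274_a_at and 1453811_at differed by -0.27 (-0.78 to 0.24) and -0.12 (-0.45 to 0.22), so all 4 overlapped between the groups.

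Hspa5 encodes BiP, the Hsp70 of the ER and a target of the unfolded protein response. Probe set 1416064_a_at read 12.42, 11.88 and 11.53 on mutant replicates 1, 2 and 3, against 12.05, 12.08 and 12.11 on wild type arrays. Probe set 1427464_s_at gave the same order of mutant arrays, with 10.99, 10.45 and 9.92, against 10.36, 10.44 and 10.53 in wild type. Mutant replicate 1 thus lay above all wild type arrays and mutant replicate 3 below them, and the group differences were -0.13 (95% confidence interval -0.62 to 0.36) and 0.01 (-0.56 to 0.58). The mutant SD was 0.45 and 0.53 on the 2 probe sets and the wild type SD was 0.03 and 0.09.

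Several other lists, of unlike kinds, ran in the same order over the mutant arrays. The summed linear signal of 20 ER partner genes was 16406, 12359 and 10402 on mutant replicates 1, 2 and 3, against 13692 to 13810 in wild type. That of 12 neutrophil genes was 50515, 23070 and 16818 on the same arrays, against 31514 to 33801 in wild type, and that of 15 immediate early genes was 10744, 4049 and 2690, against 6225 to 6552. Macrophage and monocyte genes (2766, 2600 and 1534) and T and NK cell genes (810, 529 and 380) fell in that order too. So did other Hsp70 relatives (400, 344 and 318), whereas the sums of the remaining lists did not. The part of other cells or of early gene induction in the Hspa5 values was not tested. In these bulk samples, fewer cells of a type and less RNA per cell cannot be told apart.

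Set side by side, the inducible pair lay lower than the constitutive, mitochondrial and ER members on every mutant array. As a mean over its 4 probe sets, the pair deviated from the wild type mean by -1.07, -0.75 and -0.87 on mutant replicates 1, 2 and 3, and by -0.15, -0.09 and 0.23 on wild type replicates 1, 2 and 3. The 11 probe sets of Hspa2, Hspa8, Hspa9 and Hspa5 together deviated by -0.09, -0.11 and -0.20 on the mutant arrays and by -0.05, -0.0002 and 0.05 on the wild type arrays. The pair minus the 11 others was -0.77 ± 0.19 in mutant and 0 ± 0.16 in wild type samples (log2, SD, n = 3 each), a description over chosen members and given without a test. Against Hspa8 alone the value was -0.61, and with Hsph1 counted among the inducible members it was -0.67. The 7 Hsp110 probe sets lay between, at -0.67, -0.44 and -0.34 on the mutant arrays.

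**Figure D4:**
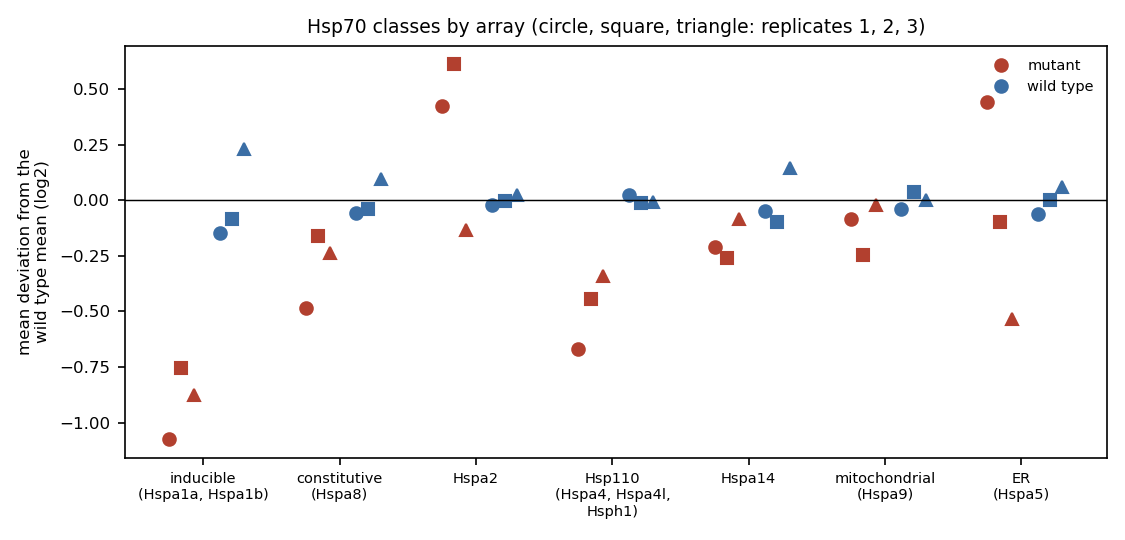
Mean deviation from the wild type mean (log2) of the probe sets in each class of the family, for each of the 3 mutant and 3 wild type arrays. The inducible class lies at -1.07 to -0.75 on the mutant arrays, whereas the ER class runs from 0.44 to -0.54 over them.

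With 1 probe set per gene, the brightest, 0 of the 10 genes were called by limma over 12393 genes, of which 0.331% were called in either direction. At an unadjusted p under 0.05, 4 of the 10 were lower (Hspa1a, Hspa1b, Hspa4l and Hsph1) and 0 were higher, against 8.30% of all genes lower and 9.11% higher. A linear model without limma's shared variance called 0 of the 10 and 0 of all 12393 genes. Hspa1a (adjusted p = 0.0642) and Hspa1b (adjusted p = 0.0817) were nearest to the threshold in this fit, and both were called without mutant replicate 1 and under array weights. Of all genes, those runs called 1182 and 1292. The brightest probe set of Hspa4 and of Hspa8 is the one with the least difference, so the falls seen on their other probe sets do not enter the gene fit.

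The partners of the Hsp70 cycle were described from lists of known genes, by the same gene fit. In that fit, 8.30% of all genes were lower and 9.11% higher at an unadjusted p under 0.05 (limma). Of 15 cytosolic J-domain genes, 0 were called by limma (2 lower and 0 higher at an unadjusted p under 0.05), with a median of -0.06 beside -0.0044 over all genes. Dnaja1, a J-domain partner of Hspa8, differed by -0.35 ± 0.11 and Dnajb5 by -0.40 ± 0.09. In the probe set fit 1 of 33 probe sets of this list was called, a probe set of Dnajb6 that fell by 0.69, beside 1.39% of all called lower. Of 10 exchange factors and co-chaperones, 0 were called (1 lower and 0 higher at an unadjusted p under 0.05, median -0.0034). The lower one was Stip1, which links Hsp70 to Hsp90, at -0.32 ± 0.09, while Bag1, an exchange factor, stood at 0.22 ± 0.11.

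Of 11 measured genes that heat shock factor controls or that belong to the heat shock response, 9 had a lower mutant mean. Their median was -0.22 beside -0.0044 over all genes, and 0 were called. At an unadjusted p under 0.05 (limma), 4 were lower and 0 higher, beside 8.30% and 9.11% of all genes. The lower ones were the mitochondrial chaperonin genes Hspd1 (-0.51 ± 0.11) and Hspe1 (-0.47 ± 0.11), the inducible Hsp90 gene Hsp90aa1 (-0.37 ± 0.09) and Chordc1, an Hsp90 partner (-0.33 ± 0.11). In the probe set fit, 1 of 21 probe sets of this list was called, a second probe set of Hspe1 that fell by 0.63. Of all probe sets, 1.39% were called lower.

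Of 20 ER partner genes of Hspa5, 0 were called in the gene fit, and 9 had a lower mutant mean (median 0.05). At an unadjusted p under 0.05 (limma), 5 were lower and 2 higher, beside 8.30% and 9.11% of all genes. Sil1, the exchange factor of BiP, read 7.70, 7.23 and 7.27 in mutant samples, against 6.77, 6.61 and 6.70 in wild type samples (0.71 ± 0.14, adjusted p = 0.0826, limma). Dnajc10, a J-domain reductase of the ER, differed by -0.51 ± 0.10 in the gene fit (adjusted p = 0.0759) and was called in the probe set fit on the same probe set. The lectin chaperone gene Canx was called there on a dimmer probe set, which fell by 0.81. These were the 2 calls among 41 probe sets of this list, and 1.39% of all probe sets were called lower. Of 12 mitochondrial partner genes, 0 were called (0 lower and 3 higher at an unadjusted p under 0.05, median 0.01), the 3 being Iscu, the scaffold of iron-sulfur clusters (0.39 ± 0.10), Clpp (0.37 ± 0.11) and Lonp1 (0.26 ± 0.10). The 3 measured genes among other Hsp70 relatives, Hspa12b, Hspa1l and Hyou1, gave 0 calls (0 lower and 1 higher at an unadjusted p under 0.05).

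Genes of other cells and immediate early genes moved between the mutant arrays. Of 15 immediate early genes, 0 were called and 0 had an unadjusted p under 0.05 (limma), with Fos at 11.64, 10.32 and 9.51 on mutant replicates 1, 2 and 3, against 11.25 to 11.34 in wild type. The part of early gene induction in the Hsp70 differences was not tested. The summed signal of 11 B cell genes was 1010, 3789 and 1857 on the mutant arrays, against 971 to 1050 in wild type, and that of 12 erythroid genes was 11979, 20262 and 20957, against 18750 to 20186. For 10 macrophage and monocyte genes the sum was 1534 to 2766 in mutant and 2395 to 2681 in wild type samples, for 8 T and NK cell genes 380 to 810 and 475 to 518, and for 7 megakaryocyte genes 559 to 898 and 479 to 499. Of the 10 macrophage and monocyte genes, 10 had a lower mutant mean (median -0.27, 2 lower and 0 higher at an unadjusted p under 0.05), and of the 11 B cell genes 1 did (median 0.88, 0 lower and 4 higher). A lower mutant mean was found for 9 of 12 neutrophil genes (median -0.28, 0 lower and 0 higher at that p), 10 of 12 erythroid genes (median -0.17, 2 lower and 0 higher) and 4 of 8 T and NK cell genes (median -0.07, 2 lower and 0 higher). It was found for 1 of 7 megakaryocyte genes (median 0.25, 0 lower and 1 higher) and 9 of 15 immediate early genes (median -0.39). Of the genes in these marker lists, Vwf of the megakaryocyte list alone was called in the gene fit. In the probe set fit, 2 of 17 erythroid probe sets were called lower, that of Tfrc given above and 1431743_a_at of the anion exchanger gene Slc4a1, which fell by 1.74 ± 0.27 (adjusted p = 0.0275, limma), whereas the brightest Slc4a1 probe set differed by -0.03. Both falls were larger than any among the Hsp70 probe sets. Among the sums of the 6 marker lists, that of the megakaryocyte genes alone did not overlap between the groups. The part of these cells in the Hsp70 falls was not tested.

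Patterns over the 6 arrays most like that of the inducible pair were sought among 5072 other genes with an SD of at least 0.2. By Pearson's r with the mean of the brightest Hspa1a and Hspa1b probe sets, the closest were Tmem143 (0.982), Srsf10 (0.977), Lamp5 (0.976), Hrc (0.974) and Pou2f2 (0.974). With 6 arrays in 2 groups a high r carries little weight, and 106 of the 5072 genes had an r above 0.9. For Hspa8 only the brightest probe set, 1455789_x_at, was used, which was not called. The closest to it were Gkn1 (0.998), Acsl4 (0.988), Cyp3a44 (0.986), Npas2 (0.979) and Tra2a (0.964), and 32 genes passed 0.9. This probe set read 12.82 on wild type replicate 3 and 12.52 to 12.65 on the other arrays, so these r values rest largely on 1 array. No signal level was required of the genes compared, so a high r does not show that a gene is expressed in these cells.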

How the data were processed

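Each of the 6 samples was read on 1 array from biotin-labelled total RNA. The authors made the deposited log2 values with GCOS, Affymetrix Expression Console and RMA, per the submitters' processing notes. Neither versions nor the set of arrays normalized together are stated in these sources. The value table holds 22690 probe sets, of which 64 controls were left out of the tests. Gene symbols came from the platform annotation of 2016, which names 1 symbol for 20380 tested probe sets, several for 691 and none for 1555. The members and lists were chosen with earlier results of these data known.

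The group difference was fitted by limma 3.58.1 under R 4.3.3 (two-sided, no covariates) over all 22626 probe sets, and again over 12393 genes with the brightest probe set of each. A call is a Benjamini-Hochberg adjusted p under 0.05. The fit was tested on simulated data. Named genes were all members, up to 4 of each list by lowest p, 5 by likeness of pattern, and checks of the labels; Dnajb6, Canx, Slc4a1 and the second probe sets of Hspe1 and Tfrc were named after their values were seen. Promoters were searched in Python 3.11.15 with pandas 2.3.3, and figures drawn with matplotlib 3.10.9. Alternatives covered the variance prior, array weights, normalization, dim probe sets, the replicate block, an ordinary linear model, the threshold, the probe set per gene, the classes and leaving out each array. Precision is limited by the number of arrays.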

Additional observations from a re-analysis of the deposited data

Results flagged for a closer look

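The spiked polyadenylated controls, bacterial transcripts added before labelling, are outside the comparisons above and differed between the groups. They read 12.83 ± 1.08 on mutant and 8.75 ± 0.016 on wild type arrays (mean log2, SD, n = 3 each), a difference of 4.07 (exact permutation p = 0.1, the smallest possible). The hybridisation controls read 10.29 to 10.72 on mutant and 9.29 to 9.41 on wild type arrays. Their difference was 1.11 (exact permutation p = 0.1). The part of both sets of controls in the Hsp70 differences was not tested.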

How the results depend on the processing

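The lower mutant mean of the inducible pair was found on all 4 probe sets under every alternative run, but its calls did not. Against 6 called Hsp70 probe sets, the replicate block gave 1 (of Hspa1b) and an ordinary linear model 0 (9 at an unadjusted p under 0.05 in each), and leaving out 1 array gave 0 to 8. Higher calls numbered 0 throughout. Against 0 called Hsp70 genes, array weights gave 2, leaving out the probe sets dimmer than the median 1, an adjusted p under 0.10 gave 2, and leaving out 1 array 0 to 2. The inducible minus other difference of -0.77 was -0.83 to -0.66 on leaving out 1 array and -0.81 to -0.61 under the other alternatives. Over all probe sets, 528 calls became 2667 with array weights, 112 with the replicate block, 81 with the ordinary linear model, 1386 at an adjusted p under 0.10 and 36 to 2544 without 1 array. Over all genes, 41 calls became 96 with a trended robust prior, 1292 with array weights, 62 with quantile normalization repeated without controls, 133 without the dimmer probe sets, 7 with the replicate block, 0 with the ordinary linear model, 383 at an adjusted p under 0.10 and 0 to 1182 without 1 array. Deviations of same-numbered samples correlated at 0.03 to 0.06. So few arrays cannot show whether the numbers pair the samples, and the labels state no pairing. The sign turned only for differences that were not called: under array weights for Hspa9 1418503_at (-0.019), Hspa9 1453811_at (0.0028) and Hspa5 1427464_s_at (-0.043), with quantile normalization repeated for Hspa8 1455789_x_at (0.025), and on leaving out 1 array for Hspa5 1416064_a_at (range -0.37 to 0.074), Hspa5 1427464_s_at (-0.26 to 0.27), Hspa4 1416146_at (-0.12 to 0.037), Hspa9 1418503_at (-0.016 to 0.12), Hspa8 1431182_at (-0.42 to 0.12) and Hspa4l 1449010_at (-0.32 to 0.059). The cause of these changes was not tested.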
